A study of Mus musculus with 19 samples.

Results

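The cells described here were 100 mature colonocytes of the regenerating mouse colon, chosen by their RNA from 1 droplet single-cell library made at day 8. Barcodes with at least 6780 unique molecular identifiers (UMIs, each counting 1 captured RNA molecule) and at least 500 genes were kept if mitochondrial genes took at most 20% of their UMIs. They also had to hold under 1% of their UMIs in 8 secretory genes (Reg4, Spink4, Agr2, Muc2, Tff3, Fcgbp, Clca1 and Zg16). Of 6794880 barcodes, 3265 passed the UMI and gene limits, 12 of these failed the mitochondrial limit, 1233 failed the secretory limit and 2020 were kept. The members were the 100 kept cells with the highest share of UMIs in Car4, Clca4b, Aqp8, Slc26a3 and Tgm3, which made up 4.95% of the kept cells. The reference for them was the other 1920 kept cells of the same library.

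The library came from Ascl2(mCh); Lgr5Dtr-Egfp+ mice on a C57BL/6 129/Sv mixed background. Their Lgr5-expressing stem cells had been ablated with diphtheria toxin, given at 50 ug/kg in 4 injections. Colonic epithelial cells that carried mCherry, the reporter of Ascl2, and lacked GFP were sorted. Bulk RNA-seq libraries, which were not used to choose the members, came from regenerating cells (2 libraries) and Ascl2 knockout cells (Ascl2Fl/Fl; Lgr5EGFP-Cre+ mice treated with tamoxifen, 2 libraries). Their reference was wild-type cells labelled as colon stem cells (Ascl2(mCh); Lgr5Dtr-Egfp+, 3 libraries), on the same mixed background. The regenerating group carried the same alleles as the wild-type group. Unlike that group, it had received diphtheria toxin and was labelled as regenerating cells, not as colon stem cells. The knockout group carried other alleles and had received tamoxifen. Lgr5-driven Cre acts in Lgr5-expressing cells. A further 8 bulk libraries came from Epcam-sorted hindgut epithelium of wild-type CD1 embryos at E11, E12, E14 and E16, 2 at each age. The ages of the adult animals are not given in the sources used here.

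Colonocytes are the absorptive cells of the large intestine. They arise from dividing progenitors in the crypt, leave the cell cycle and acquire a brush border and the transporters that take up salt and water while they move to the surface. The 5 genes of the rule are products of such cells. Car4 is a membrane-bound carbonic anhydrase and Slc26a3 exchanges luminal chloride for bicarbonate. Aqp8 is a water channel, Tgm3 is a transglutaminase that crosslinks proteins, and Clca4b belongs to the family of calcium-activated chloride channel regulators. Ascl2 encodes a transcription factor that stem cells at the bottom of the crypt depend on.

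RefSeq promoters were given for the 5 genes of the rule, whose levels set the membership, and they are printed because these genes define the cells. Each stretch runs from 250 bases before the annotated start to 50 after it in GRCm38.p6, 5′ to 3′ on the strand of the gene, and capitals mark matches to the motifs that were searched. The coordinates are chr11:84957504-84957803 (plus strand) for Car4, chr3:144932480-144932779 (minus strand) for Clca4b and chr7:123462044-123462343 (plus strand) for Aqp8. They are chr12:31437969-31438268 (plus strand) for Slc26a3 and chr2:130012090-130012389 (plus strand) for Tgm3. The windows of Slc26a3 and Tgm3 lie inside their genes, which begin at 31433142 and 129987794. Motif matches are given for the start used only.
Car4: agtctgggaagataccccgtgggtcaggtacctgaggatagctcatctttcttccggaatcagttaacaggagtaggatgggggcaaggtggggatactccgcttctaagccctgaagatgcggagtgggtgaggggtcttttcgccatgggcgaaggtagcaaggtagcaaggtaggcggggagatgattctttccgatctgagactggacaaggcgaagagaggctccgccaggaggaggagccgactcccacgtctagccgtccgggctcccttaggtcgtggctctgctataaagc
Clca4b: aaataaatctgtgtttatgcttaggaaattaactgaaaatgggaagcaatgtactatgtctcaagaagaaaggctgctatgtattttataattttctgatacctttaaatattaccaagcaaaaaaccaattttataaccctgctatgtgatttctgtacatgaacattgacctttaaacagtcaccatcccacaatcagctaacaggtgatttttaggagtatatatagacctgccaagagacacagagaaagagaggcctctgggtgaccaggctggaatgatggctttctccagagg
Aqp8: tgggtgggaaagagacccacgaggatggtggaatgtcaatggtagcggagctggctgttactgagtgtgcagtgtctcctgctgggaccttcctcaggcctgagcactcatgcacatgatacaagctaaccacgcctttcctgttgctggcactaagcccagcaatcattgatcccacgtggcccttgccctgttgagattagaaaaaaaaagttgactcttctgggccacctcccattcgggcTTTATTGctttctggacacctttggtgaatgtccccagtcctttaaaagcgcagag
Slc26a3: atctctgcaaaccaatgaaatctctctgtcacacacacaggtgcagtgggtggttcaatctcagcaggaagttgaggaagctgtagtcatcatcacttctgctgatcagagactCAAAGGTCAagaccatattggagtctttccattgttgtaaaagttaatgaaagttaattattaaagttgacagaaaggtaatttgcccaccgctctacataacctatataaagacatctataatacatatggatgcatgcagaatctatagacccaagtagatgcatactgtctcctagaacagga
Tgm3: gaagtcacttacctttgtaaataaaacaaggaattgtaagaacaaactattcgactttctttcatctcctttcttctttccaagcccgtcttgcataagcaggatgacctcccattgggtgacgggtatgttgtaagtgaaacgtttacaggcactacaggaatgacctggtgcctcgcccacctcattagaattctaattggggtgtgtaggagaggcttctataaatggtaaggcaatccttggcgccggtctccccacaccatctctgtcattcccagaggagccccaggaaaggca
The motifs were CAAAGTCCA and CAAAGGTCA for HNF4, GGGTGTGG for KLF4, and for CDX factors TTTATTG as well as TTTATGG and also TTTACGA, each on both strands, with no motif holding another. CAAAGGTCA was found in the Slc26a3 promoter, at positions -136 to -128 from the start site, which is counted as 0, and in 0.478% of the 32851 promoters of the RefSeq table. TTTATTG was found in the Aqp8 promoter at positions -6 to 0 and in 4.60% of all promoters. Either HNF4 motif occurred in 1 of the 5 promoters and in 0.95% of all. Any CDX motif occurred in 1 of the 5 and in 7.74% of all, and GGGTGTGG in 0 of the 5 and in 3.56% of all. The Car4, Clca4b and Tgm3 windows held none of these letters. The promoters differed in base composition, with 57.3% G and C for Car4 and 37% for Clca4b, against a median of 52.7% over all promoters.

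The values of the 5 genes chose the members, so they are described here and not tested. Levels in single cells are given as UMIs per 10000 UMIs of the cell, and levels of a group as CPM, on which scale 10000 CPM is 1% of the summed UMIs of the group. The marker share of the members had a median of 0.801% and a highest value of 2.06%. The last 3 members held 0.2204%, 0.217% and 0.215%, and the first 3 cells outside held 0.208%, 0.204% and 0.194%, so no gap separated them. Among the other kept cells, 84.2% had no UMI of the 5 genes. Per cell, Car4 ranged from 0 to 110 with a median of 21.9 in the members, and Aqp8 from 0 to 95.7 with a median of 8.75. Clca4b had a median of 8.45 and a highest value of 44.7, and Tgm3 a median of 14.02 and a highest value of 33.0. Slc26a3 was the gene that 100 of 100 members held, from 1.54 to 32.8 with a median of 13.9. Car4 was found in 92 members, Aqp8 in 87, Clca4b in 86 and Tgm3 in 85, so a member need not hold every gene of the rule. In free RNA, taken from the barcodes with under 100 UMIs, the 5 genes made up 0.0264% of UMIs, below the share of the last member.

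The label of mature colonocytes was set against 33 measured colonocyte genes that the rule did not use. That list was chosen with earlier results of these data known. Of its measured genes, 29 lay at least 2-fold higher in the members, beside 13.0% of all genes measured. Krt20, a keratin of differentiated surface epithelium, was found in 100 of 100 members and in 6.72% of the other cells. Ascl2 and the mitosis genes were at or near 0 in the members, whereas some other genes of the stem cell list, such as Prom1 and Lgr4, were not, as given further on. These genes come from the cells that were ranked, so their levels describe the members and are no test of the label.

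The members also stood apart in the make-up of their RNA. They held a median of 17119.5 UMIs (7178 to 56702), against 25888 (6796 to 129845) in the other kept cells. The median number of genes was 3464.5 in the members and 4955.5 in the other cells, and after thinning each cell to 6780 UMIs it was 2043.5 in the members and 2374 in the other cells. Mitochondrial genes took a median of 9.86% of UMIs in the members (5.75% to 17.8%), against 5.06% in the other cells (1.25% to 19.5%). Ribosomal protein genes took 4.63% in the members (1.20% to 16.9%), against 29.5% in the other cells (4.63% to 39.2%). The part of depth, mitochondrial share and ribosomal protein share in the differences below was not tested. A doublet caller marked 1 of 3253 cells, which was not a member, so doublets were in effect not removed. There was 1 single-cell library, so no test between groups of its cells was possible, and the intervals below are at 95% and cover counting error only.

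Of 10750 genes with at least 100 UMIs over the kept cells, 1400 (13.0%) lay at least 2-fold higher in the members and 4372 (40.7%) at least 2-fold lower. The median log2 ratio over these genes was -0.65. With ratios taken relative to that median, a setting chosen after seeing the data, 2565 genes were higher and 2922 lower, so that the higher genes made up 46.7% of both, against 24.3% without it.

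Among the genes outside the rule with the highest ratios, Saa1 had the highest level. Saa1, an acute-phase serum amyloid A protein that epithelium makes in contact with bacteria, reached 9886.5 CPM in the members, against 18.9 CPM in the other kept cells. The ratio was 522 (counting interval 490 to 556). It depended on where the ranking was divided, with 104 for 50 members, when the next cells in rank count among the other cells, and 1691 for 200 members. Saa1 was found in 99 members, from 0 to 298 UMIs per 10000 with a median of 92.7, and in 9.58% of the other cells, whose highest value was 43.1. In free RNA Saa1 stood at 373 CPM. Most of the members therefore lay above the highest of the other cells.

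The 30 genes with the highest ratios spanned 54.3-fold to 725-fold, and over 19 alternatives their log2 ratios lay between 4.47 and 12.10. 9 of the 30 were found in at least 90 members and 10 in under 50, and 7 belonged to the colonocyte list. 2010109I03Rik led by ratio, with 279 CPM in the members and 0.385 CPM in the other cells (725-fold, interval 470 to 1180), but was found in 52 members. Ly6g, a GPI-anchored antigen best known from neutrophils, stood at 874 CPM in the members and 3.32 CPM in the other cells, and was found in 93 members. Sprr2a3, a small proline-rich protein, stood at 3710 CPM in the members, each of which held it, and at 47.4 CPM in the other cells.

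Of these 30 genes, 6 encode transporters. Slc15a1, the apical peptide transporter, was 345-fold higher (107 CPM in the members and 0.312 CPM in the other cells, interval 210 to 602). Atp12a, the non-gastric proton and potassium ATPase, was 150-fold higher (245 CPM in the members and 1.63 CPM in the other cells). Slc9a3, the sodium and proton exchanger of the brush border, was 73.1-fold higher (162 CPM in the members and 2.22 CPM in the other cells). Slc7a9, a cystine and basic amino acid transporter subunit, was 70.8-fold higher, Slc34a2, a sodium and phosphate cotransporter, 67.5-fold and Slc37a2, a sugar phosphate transporter, 54.3-fold. Each of these was found in 39 to 70 members, fewer than Saa1.

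The other leading genes were Cyp2d12, Cyp2d9 and Cyp2d34 of the cytochrome P450 family, the interferon-induced Ifit1 and its relative Ifit1bl1, and Apol9a. Further ones were the serine protease gene Prss30, the microvillus adhesion genes Ceacam20 and Tmigd1, the kinase gene Sgk2, the retinol dehydrogenase gene Dhrs9 and the adenylate kinase gene Ak4. The list was completed by Clca4a, Pmp22, Sectm1b, H2-Q1, Lhfpl2, Tmem140, 2310079G19Rik and 2010003K11Rik. Ceacam20, Pmp22 and Sectm1b were each found in 99 members, whereas Ak4 was found in 25 and Ifit1 in 26. Saa1, the Cyp2d genes, Sprr2a3, the Ifit1 genes, Clca4a, Apol9a and H2-Q1 have close paralogs, and their counts are uncertain to that extent.

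**Figure D1:**
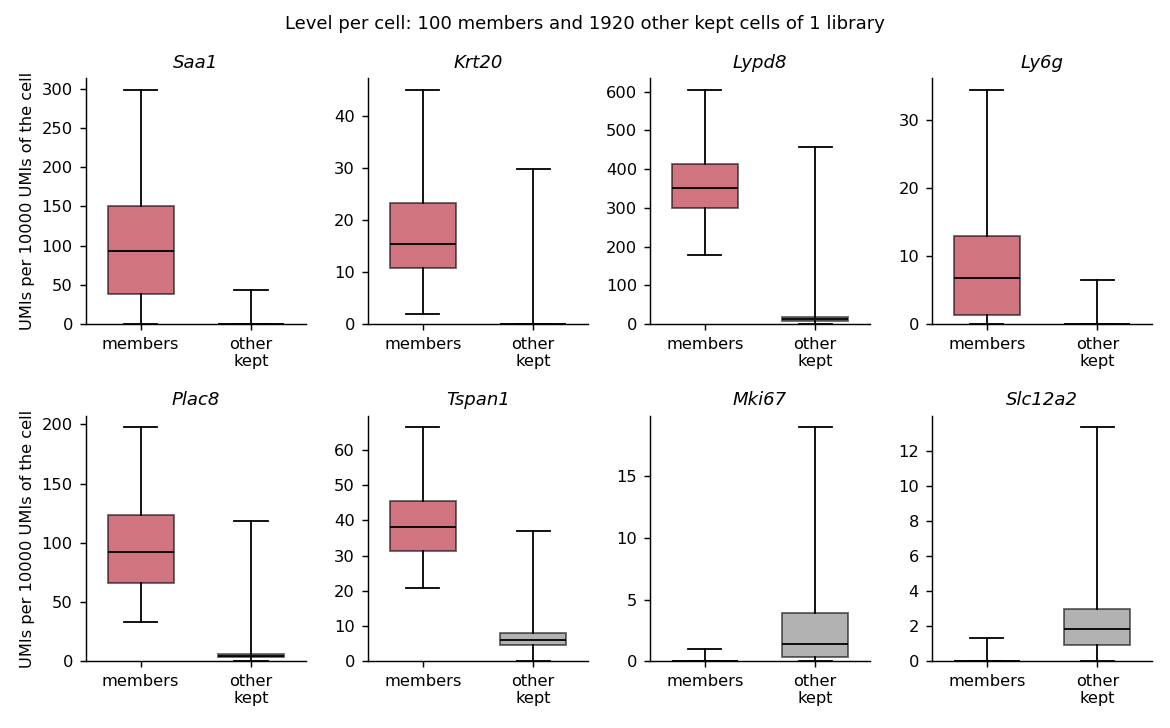
Level per cell of 8 genes, in UMIs per 10000 UMIs of the cell, in the 100 members (red, left) and the 1920 other kept cells (grey, right); boxes give the quartiles and median and whiskers the lowest and highest cell. The medians of Saa1 are 92.7 in the members and 0 in the other cells, whereas Mki67 and Slc12a2 have a median of 0 in the members and of 1.41 and 1.82 in the other cells.

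The counts of the lists below are to be read beside the 13.0% of all genes that were higher and the 40.7% that were lower. The colonocyte genes, 33 of 35 measured and 29 of them at least 2-fold higher, had a median log2 ratio of 3.95, beside -0.65 over all genes. The summed level of the list was 84267 CPM in the members and 8411 CPM in the other cells. Lypd8, a secreted protein that keeps flagellated bacteria off the colonic surface, was named after its values were seen: it took 36000.5 CPM in the members, against 2089 CPM in the other cells, and ranged from 179 to 604 UMIs per 10000 in the members. The list's 4 highest genes by ratio were Saa1, Clca4a, Ceacam20 and Slc9a3, given above. Krt20 stood at 1668 CPM in the members and 31.6 CPM in the other cells. The list's 4 lowest were Slc5a8, a butyrate and lactate transporter (246 CPM in the members and 134 CPM in the other cells), Guca2b (46.8 CPM in the members and 28.7 CPM in the other cells), the cytosolic carbonic anhydrase gene Car2 (719 CPM in the members and 637 CPM in the other cells) and Sult1a1. Sult1a1, a phenol sulfotransferase, was the 1 gene of the list that was lower, with 72.4 CPM in the members and 407 CPM in the other cells.

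Ion and water transport genes did not share 1 direction. Of 32 measured, 19 lay at least 2-fold higher and 6 at least 2-fold lower, with a median log2 ratio of 1.51. Beside Clca4a, Atp12a and Slc9a3, the highest was Fxyd4, a regulator of the sodium pump, with 200.2 CPM in the members and 7.65 CPM in the other cells. The 4 lowest held genes of chloride secretion. Slc12a2, the basolateral cotransporter that loads chloride for secretion, had 3 UMIs in the members and 11174 in the other cells (1.42 CPM in the members and 205 CPM in the other cells, ratio 0.00693, interval 0.00143 to 0.0202). Kcnn4, a calcium-activated potassium channel, had 1 UMI in the members and 4489 in the other cells. Cftr, the apical chloride channel, stood at 4.26 CPM in the members and 86.0 CPM in the other cells, and Fxyd3 at 7.10 CPM in the members and 199 CPM in the other cells. The water channel gene Aqp1, named after its values were seen, had 0 UMIs in the members, which placed it at least 13.6-fold lower than its 19.3 CPM in the other cells. Here and below, a sum of 0 UMIs was set to a floor of 3 counts over the group. The free RNA held Slc12a2 at 133 CPM and Fxyd3 at 313 CPM, above the members in both cases.

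Brush border genes were higher almost throughout. Of 25 measured, 24 lay at least 2-fold higher, with a median log2 ratio of 2.495 and a summed level of 13335 CPM in the members and 2553 CPM in the other cells. Tmigd1 and Krt20 led, followed by Mal, an apical sorting protein (176 CPM in the members and 4.09 CPM in the other cells), and the protease gene Mep1b (181 CPM in the members and 5.78 CPM in the other cells). Dpp4, a peptidase of the small intestinal brush border, was the 1 lower gene, with 5 UMIs in the members and 1553 in the other cells. The differentiation transcription factors had 10 of 22 measured genes higher and 4 lower. Mxd1, a partner of Max that opposes Myc, was highest by ratio and was found in 100 of 100 members, with 737 CPM in the members and 20.5 CPM in the other cells. Isx was 6.33-fold higher, Tcf7l2 5.66-fold and the mineralocorticoid receptor gene Nr3c2 5.23-fold. Hes1, a Notch target, was lowest, with 31.2 CPM in the members and 158 CPM in the other cells, and Gata6 and Cdx1 were also lower.

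Genes of cell cycle exit had 5 of 11 members of the list higher and 1 lower. Cdkn2b, which encodes the inhibitor p15, stood at 149 CPM in the members and 8.27 CPM in the other cells. Cdkn1a, which encodes the inhibitor p21, stood at 485 CPM in the members and 39.1 CPM in the other cells and was found in 99 members. Cdkn1c was the lower gene, with 3 UMIs in the members and 252 in the other cells. Among the junction genes, 7 of 16 were higher and 3 lower. Cldn8 was 6.08-fold and Cldn23 5.75-fold higher, whereas Cldn2, a claudin of pores that conduct cations and water, stood at 1.89 CPM in the members and 194 CPM in the other cells, and Cldn15 at 3.31 CPM in the members and 69.4 CPM in the other cells.

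Antimicrobial genes had 6 of 14 measured genes higher and 3 lower. Reg3b stood at 2783 CPM in the members and 470.5 CPM in the other cells, but 77 members held no UMI of it and 5 cells gave 89.8% of the members' Reg3b UMIs. Lcn2 had 0 UMIs in the members, which placed it at least 7.43-fold lower than its 10.5 CPM in the other cells. Interferon-induced genes had 7 of 12 measured genes higher and 1 lower, with a median log2 ratio of 3.02, which ranged from 1.27 with at least 200 UMIs a gene to 3.66 with centring. Ifit1 led with 40.7 CPM in the members and 0.367 CPM in the other cells. Isg15 stood at 266 CPM in the members and 10.8 CPM in the other cells, Ifit2 at 26.0 CPM in the members and 1.38 CPM in the other cells, and the transcription factor gene Irf7 at 158 CPM in the members and 9.59 CPM in the other cells. Bst2 was the lower gene, with 23.7 CPM in the members and 66.9 CPM in the other cells, and Psmb8, Psmb9 and Tap1 lay within 2-fold. Genes of MHC class II presentation had 2 of 7 higher, H2-Aa with 1841 CPM in the members and 533 CPM in the other cells and Cd74 with 4633 CPM in the members and 2088 CPM in the other cells.

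The fetal and repair genes, which mark epithelium that is healing, had 6 of 10 measured genes higher and 2 lower. Ly6c1 stood at 318 CPM in the members and 13.3 CPM in the other cells, and Ly6a, which encodes Sca-1, at 4139 CPM in the members and 404 CPM in the other cells. Sprr1a was 8.42-fold and S100a6 4.21-fold higher, but Sprr1a was found in 10 members and S100a6 in 100. Krt7 was lower, with 12.3 CPM in the members and 88.5 CPM in the other cells. Genes of glycolysis and hypoxia had 9 of 13 higher and 0 lower, led by Bnip3 (6.57-fold) and the glucose transporter gene Slc2a1 (3.41-fold). Of 16 xenobiotic genes, 8 were higher and 5 lower. Cyp3a13 (20.6-fold) and the efflux pump genes Abcg2 and Abcb1a (11.4-fold each) were high, whereas the glutathione-linked genes Gpx2 and Gstm1 were low. Gpx2 stood at 171 CPM in the members and 2739.56 CPM in the other cells, and Gstm1 at 12.8 CPM in the members and 440 CPM in the other cells.

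Lipid and ketone genes were mixed, with 9 of 21 higher and 6 lower. Apob was 12.9-fold, Dgat2 5.02-fold and Fabp2, a fatty acid binding protein, 4.33-fold higher, whereas Acat1, Scd2 and Acsl5 were among the lower genes. Of 8 BMP-related genes, 4 were higher, led by Bmp2 (9.66-fold), and 1 was lower. That gene, the BMP pseudoreceptor gene Bambi, had 0 UMIs in the members and 17.2 CPM in the other cells, at least 12.1-fold lower. Of 4 guanylin pathway genes, Guca2a was 19.4-fold higher, with 1915 CPM in the members and 98.9 CPM in the other cells. Its paralog Guca2b, the receptor gene Gucy2c and the kinase gene Prkg2 lay within 2-fold. Immediate-early genes had 0 of 13 higher and 6 lower, near the 40.7% of all genes that were lower. Ier3, Fosb, Klf2 and Atf3 were the lowest, Fosb with 70.0 CPM in the members and 372 CPM in the other cells.

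**Figure D2:**
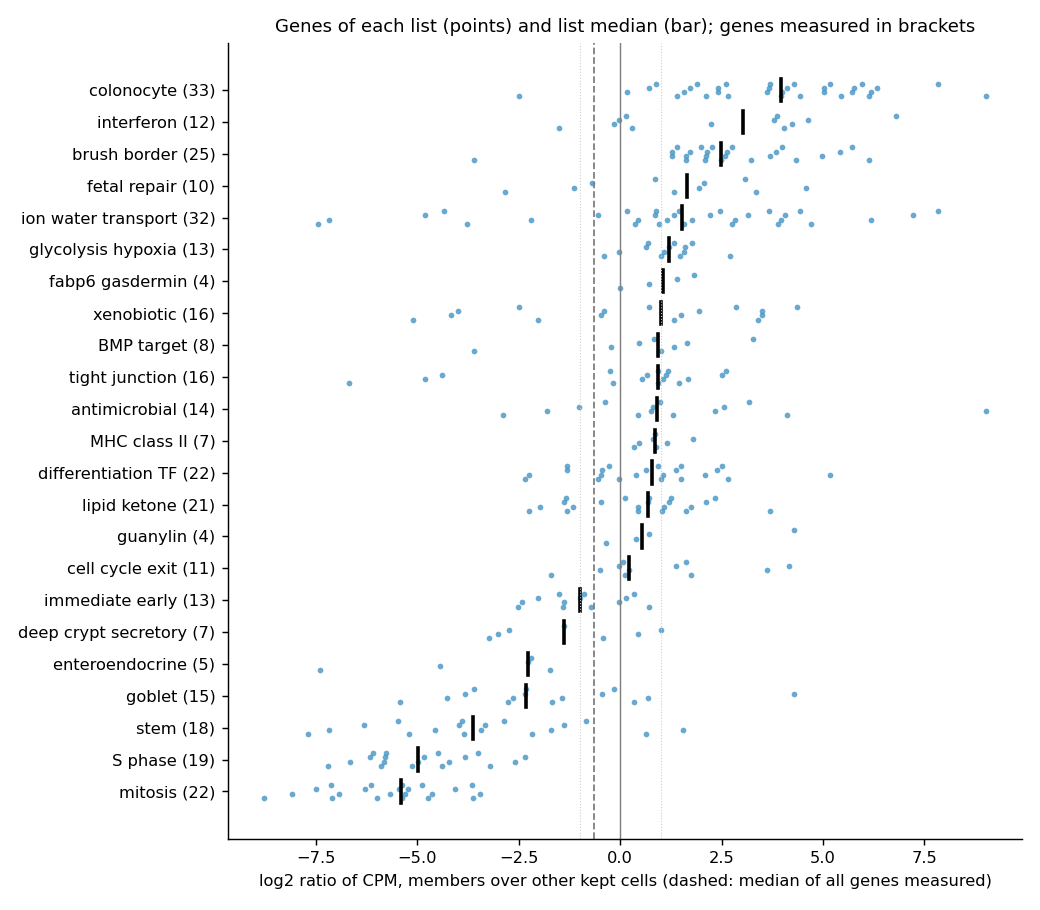
Log2 ratio of CPM, members over other kept cells, for each measured gene (points) of the lists with at least 4 measured genes, with the list median (bar) and the median of all genes (dashed, -0.65). Colonocyte and brush border genes lie mainly to the right (medians 3.95 and 2.495), and mitosis and S-phase genes lie to the left without exception (medians -5.41 and -4.99).

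Genes of DNA replication and mitosis were nearly absent from the members. Of the S-phase genes 19 of 19, and of the mitosis genes 22 of 22, lay at least 2-fold lower. The median log2 ratio of the mitosis genes was -5.41, and -3.21 with a mitochondrial limit of 10%. The summed mitosis list gave 40 UMIs or 18.9 CPM in the members, 70 of which held none, against 1946 CPM in the other cells (103-fold lower). The S-phase list gave 62.5 CPM in the members and 1469 CPM in the other cells (23.5-fold lower). Mki67, the common proliferation marker, was found in 9 members and in 77.4% of the other cells, with 5.20 CPM in the members and 267 CPM in the other cells. Mcm3, a subunit of the replicative helicase, had 0 UMIs in the members and was at least 68.1-fold lower than its 96.7 CPM in the other cells. In free RNA the mitosis list stood at 1255 CPM and Mki67 at 123 CPM, both above the members.

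Of 18 measured stem cell genes, 15 were lower and 1 was higher, with a median log2 ratio of -3.64. Ascl2, whose reporter the sort was made on, had 0 UMIs in the members, which, at a floor of 3 counts, allows a share of up to 3% of them with a UMI. It was found in 35.7% of the other cells, at 20.5 CPM, and in 11.7% of them once cells were thinned to 6780 UMIs, so it was at least 14.4-fold lower in the members. Lgr5 also had 0 UMIs in the members, but stood at 2.53 CPM in the other cells, so it was at least 1.78-fold lower, which is under the 2-fold used for a call. Smoc2 and Sox4 had 1 UMI each in the members, and 2040 and 5332 in the other cells. Prom1 was the higher gene, with 134 CPM in the members and 45.8 CPM in the other cells, and Lgr4 stood at 113 CPM in the members and 71.7 CPM in the other cells.

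The 20 genes with the lowest ratios were 138-fold to 437-fold lower, and each had at most 5 UMIs in the members, so their order is uncertain. The floor of 3 counts was applied only to sums of 0, so a gene with 0 UMIs could rank behind a gene with 1. Mcm3, with 0 UMIs in the members and 5273 in the other cells, thus fell outside the 20. Mcm5, with 1 UMI in the members and 3783 in the other cells, lay inside. The sizes depended on the settings: Ube2c was 5.53-fold lower with a mitochondrial limit of 10%, and over 19 alternatives the log2 ratios of the 20 lay between -9.12 and 1.66, the last being Pyy with 200 members. The largest differences in UMIs were those of Hist1h1b, a linker histone with 5 UMIs in the members and 25706 in the other cells, Top2a with 4 in the members and 14374 in the other cells, and Ube2c with 1 in the members and 11281 in the other cells. Cenpf, Cdca3, Prc1, Cks1b, Tk1 and Mcm5 are further genes of the cell cycle. The rest were Slc12a2, Kcnn4, Sox4, Cdo1, Ttr, Pyy, Mettl1, Sema5a, Srm, Rgcc and Apex1. Srm, Mettl1 and Apex1 act in polyamine synthesis, RNA modification and DNA repair.

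Markers of other cell types were counted over whole lists. Goblet cell genes outside the rule had 10 of 15 measured genes lower, 1 higher and a median log2 ratio of -2.33. Their summed level ranged from 1.24 to 85.2 UMIs per 10000 in the members and from 0 to 74.4 in the other cells. The higher gene was Guca2a, which is also on the colonocyte list and gave most of that sum. Deep crypt secretory genes had 4 of 7 lower and 1 higher, near the shares of all genes, and their median log2 ratio of -1.38 lay between -2.49 and -0.36 over 18 alternatives. The higher one was Ccl6, with 124 CPM in the members, 61.9 CPM in the other cells and 838 CPM in free RNA. Enteroendocrine genes were lower in 5 of 5, their sum was 0 in 78 members and at most 1.53 UMIs per 10000, against up to 2081 in the other cells, and Chga, Gcg and Insl5 had 0 UMIs in the members. In the other cells these genes sat in few cells, with Pyy in 1.88% of them and Chga in 1.20%, and with 200 members the median log2 ratio of the list was 1.66, against -2.28 with 100. The sums of the tuft, immune, stromal and endothelial lists were 0 in 98, 97, 100 and 99 members.

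Because membership cuts a continuous ranking, levels were also followed along it, as a description. In ranks 1 to 25, 26 to 50, 51 to 75 and 76 to 100, Saa1 stood at 16992, 10970.2, 8588 and 3570 CPM. It stood at 584 CPM in ranks 101 to 150 and at 2.18 CPM from rank 501 on. Krt20 was flat within the members, at 1505, 1876, 1651 and 1621 CPM, stood at 785 CPM in ranks 101 to 150 and was at 1.73 CPM from rank 501 on. Car1, another carbonic anhydrase of colonocytes, was still at 1763 CPM in ranks 101 to 150, against 1761 CPM in the top 25. The share of ribosomal protein genes ran the other way, with medians of 2.89%, 4.58%, 5.50% and 8.10% in the 4 groups of members, 13.1% in ranks 101 to 150 and 29.9% from rank 501 on. Mki67 was at most 9.11 CPM in the members, 3.35 CPM in ranks 101 to 150, 52.0 CPM in ranks 151 to 200 and 282 CPM from rank 501 on. Cells just outside the members thus carried Car1 and Krt20 and little Mki67, with less Saa1.

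**Figure D3:**
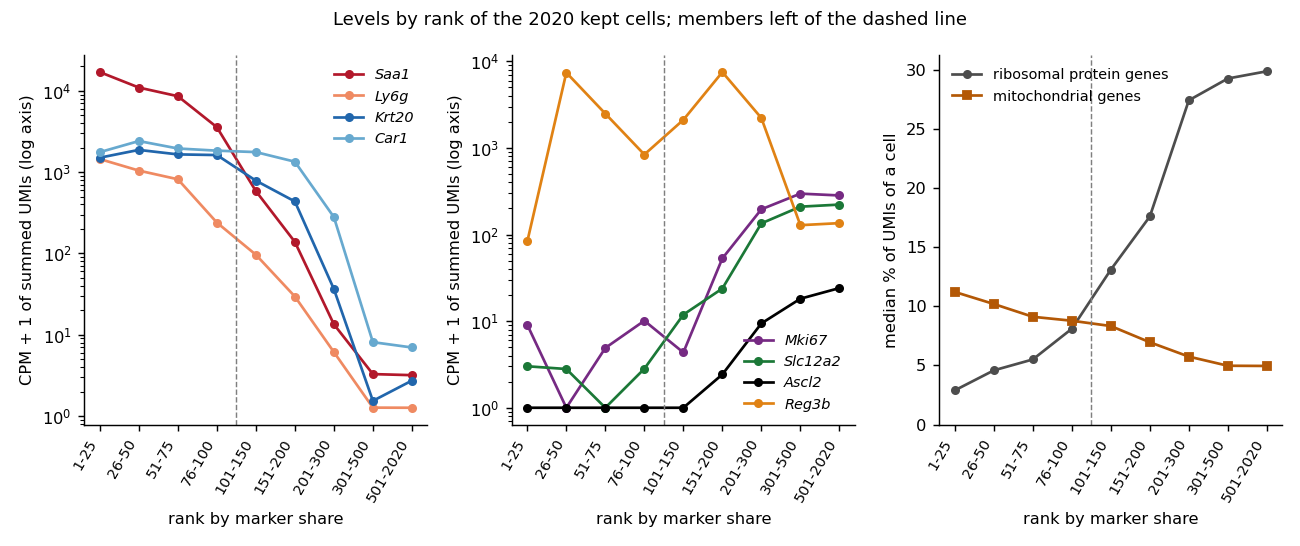
Levels along the rank of the 2020 kept cells by marker share, in groups of ranks: CPM + 1 of summed UMIs on a log axis (left and middle) and the median share of ribosomal protein and mitochondrial genes (right). Members lie left of the dashed line; Saa1 declines from 16992 CPM in the top 25, while Krt20 is at least 1505 CPM and Car1 at least 1761 CPM throughout the members, and Ascl2 is 0 there.

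The members differed among themselves, which is given as a description, since they were chosen on the sum of 5 genes and the genes named in this paragraph and the next were picked after their values were seen. Across the 100 members Spearman's rank correlation was 0.73 between Car4 and Aqp8, 0.75 between Car4 and Saa1 and 0.59 between Car4 and Slc26a3. Clca4b was less related to Car4 (0.28) and Aqp8 (0.20) and was closest to Ly6c1 (0.70) and Clca3b (0.68) among 2430 genes. The points share 1 library and differ in depth, and cells chosen for a high sum of 5 genes carry relations between those genes that the choice sets. The marker share had a rank correlation of -0.66 with the share of ribosomal protein genes and of -0.06 with the UMIs of the cell. Car4 was most opposed to Eef1a1, a translation factor (rank correlation -0.70).

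The rank correlation was -0.71 between Tgm3 and Fabp2, -0.68 between Tgm3 and Mal, and 0.62 between Tgm3 and Hoxb13, a Hox gene of the distal colon, whereas Mal and Fabp2 had a rank correlation of 0.75. A UMI of Hoxb13 without one of Mal was found in 68 members, Mal without Hoxb13 in 10 and both in 22. Hoxb13 and Mal were picked for their relation to Tgm3 in the same cells. The levels of Tgm3 and Fabp2 over this split therefore restate that choice and are not given. Guca2a and Atp12a were also related to Tgm3 (rank correlation -0.50 and 0.64), so their levels over the split restate it in part. Guca2a stood at 4344 CPM with Mal alone and 1056 CPM with Hoxb13 alone, Cyp2c55 at 1876 CPM with Mal alone and 346 CPM with Hoxb13 alone, and Atp12a at 0 CPM with Mal alone and 322 CPM with Hoxb13 alone. Car4 differed less, at 2124, 2988 and 2734 CPM with Mal alone, both and Hoxb13 alone, and Slc26a3 stood at 1364, 1537 and 1387 CPM. Median depth was 12860 UMIs with Mal alone, 17372 with both and 18919 with Hoxb13 alone, and the part of depth in this split was not tested. Hoxb13 was not particular to the members, with 346 CPM in them and 258 CPM in the other kept cells.

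**Figure D4:**
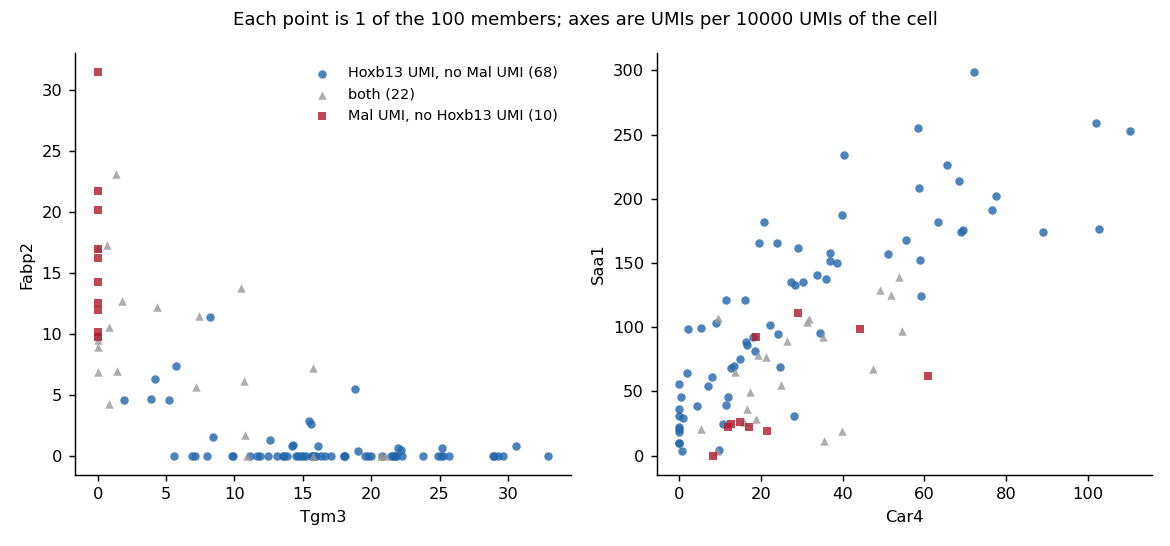
Each of the 100 members as a point, with Tgm3 against Fabp2 (left) and Car4 against Saa1 (right), in UMIs per 10000 UMIs of the cell; colours and shapes give which of Hoxb13 and Mal had a UMI. Tgm3 and Fabp2 are seldom both high (rank correlation -0.71), and Car4 and Saa1 vary together (rank correlation 0.75).

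Among the other kept cells, the 100 highest in Reg3b and Reg3g and the 100 highest in Fabp6 and the gasdermin C genes were set beside the members, and they shared 12 cells. Of the top 100 by those scores among all kept cells, 19 and 13 were members. Members were left out of both groups, so the cells with the highest marker share could not be in them. Levels that follow the marker share are therefore set in part by that choice. The summed colonocyte list stood at 84267 CPM in the members, 30909 CPM in the Fabp6 and gasdermin C group and 13825 CPM in the Reg3b and Reg3g group. It was 48369 CPM in ranks 101 to 150 by marker share, above both of these groups. Krt20 stood at 1668, 293 and 220.4 CPM in the same 3 groups, Saa1 at 9886.5, 160 and 101 CPM, and Sprr2a3 at 3710, 438 and 193 CPM. Mki67 stood at 5.20, 44.6 and 212 CPM, and ribosomal protein genes took medians of 4.63%, 18.3% and 26.3% of UMIs. With 1 library, none of these differences was tested.

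The bulk libraries gave the genes of the members in independent samples. The adult libraries held 16553279 to 30074569 counts and the hindgut libraries 13826958 to 30583908. Ascl2 itself, the targeted gene, had 53.8 and 59.2 CPM in knockout cells, against 109.7, 151 and 104 CPM in wild-type cells, so it was lower and not absent. It had 85.7 and 57.0 CPM in regenerating cells. The wild-type libraries, labelled as stem cells, also held Car4, at 68.4 to 819 CPM. In bulk samples, fewer cells of a type and less RNA per cell cannot be told apart. Clca4b and the leading gene Ifit1bl1 were each matched through a synonym. Of the 30 leading genes 27 were matched, while Ly6g, Clca4a and Sprr2a3 were not.

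In regenerating cells, Car4 had 39.0 and 179 CPM, against 412, 68.4 and 819 CPM in wild-type cells, so the groups overlapped. Slc26a3 had 10.9 and 45.9 CPM in regenerating cells, against 120, 32.1 and 172 CPM in wild-type cells, which also overlapped. Tgm3 had 2.03 and 2.19 CPM in regenerating cells, against 13.7, 5.29 and 18.9 CPM in wild-type cells, which did not overlap. Its log2 fold change was -2.58 ± 0.54 (SE, 2 and 3 libraries), with an adjusted p of 0.113 in edgeR's quasi-likelihood test with Benjamini-Hochberg adjustment, so it did not pass at 0.05. Over all genes 0.302% were called higher and 0.0288% lower in that comparison. Of the 26 leading genes tested, 0 passed and 5 had an unadjusted p under 0.05, beside 1460 of all 13911 genes tested. DESeq2 called 1, and 2 passed in edgeR without wild-type replicate 2. The 26 log2 fold changes were all negative, from -3.82 to -0.07 with a median of -1.73, beside a median of 0.01 over all genes. The groups did not overlap for 2 of the 26 and overlapped for the others. The share over all genes was not counted, so nothing is read from that number. Among the wild-type libraries, replicate 2 was the lowest for Car4, Aqp8, Slc26a3, Tgm3 and Saa1.

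In Ascl2 knockout cells, Tgm3 had 43.5 and 61.0 CPM, against 13.7, 5.29 and 18.9 CPM in wild-type cells, and the groups did not overlap. It rose, with a log2 fold change of 2.05 ± 0.48 (SE) and an adjusted p of 0.00961 in edgeR's quasi-likelihood test. That call was lost with library size alone as the scaling (log2 fold change 1.09, adjusted p = 0.0928) and without knockout replicate 2 (1.78, adjusted p = 0.0681). Over all genes 18.8% were called higher and 17.4% lower. Reads that aligned to more than 1 place made up 51.2% and 51.4% of the tallied reads in knockout cells, against 40.1%, 40.2% and 39.1% in wild-type cells, and the part of this in the comparison was not tested. The other genes of the rule did not pass: Car4 had 751 and 495 CPM in knockout cells, against 412, 68.4 and 819 CPM in wild-type cells. Saa1 had 3454 and 2281 CPM in knockout cells, against 457, 20.8 and 822 CPM in wild-type cells, with a log2 fold change of 2.73 ± 0.99 (SE) and an adjusted p of 0.0592 in edgeR, so it did not pass despite groups that did not overlap. Of the 26 leading genes tested, 1 rose and 2 fell. 2310079G19Rik had 88.8 and 43.4 CPM in knockout cells, against 4.43, 0 and 3.20 CPM in wild-type cells. Ifit1 had 2.45 and 0.916 CPM in knockout cells, against 15.2, 4.30 and 47.1 CPM in wild-type cells. H2-Q1 had 0.815 and 0.367 CPM in knockout cells, against 3.02, 3.10 and 9.67 CPM in wild-type cells. The count of 3 was 0 without knockout replicate 1, 1 without knockout replicate 2 and 5 without wild-type replicate 2, so it rests on single libraries. Over 13 alternatives the adjusted p of 2310079G19Rik reached 0.0856, that of Ifit1 0.119 and that of H2-Q1 0.216. The calls were lost in 1 alternative for 2310079G19Rik, 3 for Ifit1 and 6 for H2-Q1.

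In the hindgut the genes of the rule did not move together. Clca4b had 23.1 and 24.6 CPM at E16, against 0 in both E11 libraries, at least 457-fold higher with the E11 group at a floor of 3 counts. Slc26a3 had 6.41 and 1.20 CPM at E16, against 0 in both E11 libraries, at least 72.8-fold higher. Tgm3 had 0.924 and 0.527 CPM at E16, against 0 and 0.0649 CPM at E11. Car4 had 0 CPM in both E16 libraries, against 3.64 and 7.34 CPM at E11, at least 54.0-fold lower. Adjusted p-values from edgeR's quasi-likelihood test were 0.00182 for Clca4b, 0.0132 for Slc26a3, 0.0477 for Tgm3 and 0.00443 for Car4. Aqp8 did not pass (0.362). Clca4b and Slc26a3, at 0 in both E11 libraries, entered the test through their later levels, so a fall could not have been called. Tgm3, near 0 at E11, also entered the test through its later levels, so a fall could hardly have been called. Car4, at 0 in both E16 libraries, entered it through its earlier levels, so a rise could not have been called. Slc26a3 did not pass without E16 replicate 1 (adjusted p = 0.142). The Tgm3 call was lost in 11 of 14 alternatives, among them each of the 8 in which a library was left out, with adjusted p-values of 0.0421 to 0.244 over the 14. Over all genes 29.6% were called higher and 26.2% lower at E16.

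Of the 22 leading genes tested in the hindgut, 11 rose and 0 fell, beside 29.6% of all genes called higher and 26.2% called lower. Of the 11, 6 were at 0 in both E11 libraries and entered the test through their later levels, so for these a fall could not have been called. Atp12a and Slc37a2 were near 0 at E11 (Slc37a2 at 0 and 0.260 CPM) and also entered through later levels. A fall of either could hardly have been called. Atp12a had 23.1 and 22.7 CPM at E16, against 0 and 0.0325 CPM at E11. Slc7a9 had 21.8 and 23.9 CPM at E16, against 1.05 and 0.325 CPM at E11. H2-Q1 had 38.8 and 36.6 CPM at E16, against 1.88 and 1.95 CPM at E11, and Pmp22 had 94.5 and 85.3 CPM at E16, against 24.3 and 35.3 CPM at E11. The others that rose were Slc37a2, Dhrs9, Slc34a2, Slc9a3, Prss30, Ifit1bl1 and Cyp2d34. Except for Slc37a2 (12.8 and 13.5 CPM at E16), these reached at most 4.74 CPM in an E16 library. Slc9a3 and Cyp2d34 did not pass with DESeq2 (adjusted p = 0.0742 and 0.0890). Saa1 had 0.678 and 1.58 CPM at E16, against 0.789 and 0.455 CPM at E11, and did not pass. The count of 11 was 6 without E11 replicate 1, 5 without E16 replicate 1 and 4 without E16 replicate 2.

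**Figure D5:**
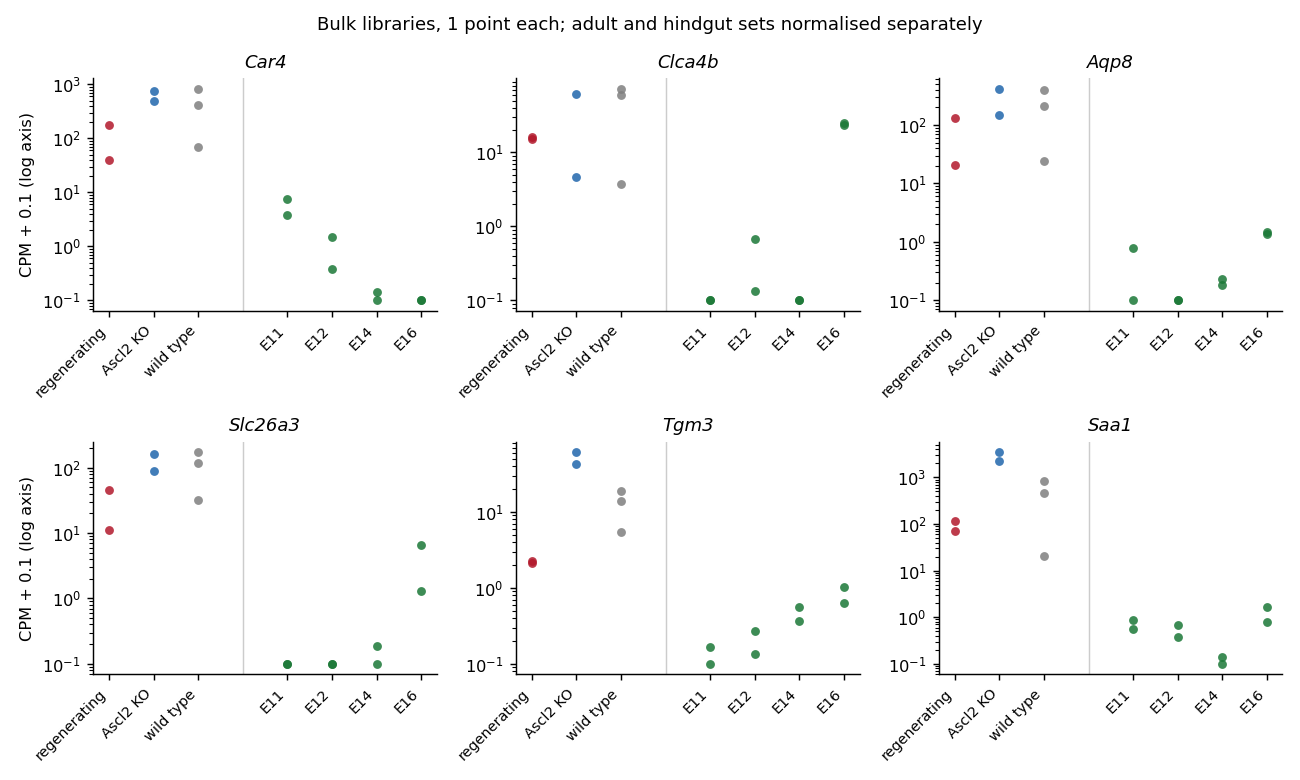
CPM + 0.1 on a log axis of the 5 genes of the rule and Saa1 in each bulk library (points), for regenerating, Ascl2 knockout and wild-type cells left of the line and for hindgut from E11 to E16 right of it; the 2 sets were normalised separately. Tgm3 in knockout cells (43.5 and 61.0 CPM) lies above the wild-type cells, and Clca4b appears at E16 (23.1 and 24.6 CPM) while Car4 is 0 there.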

How the data were processed

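Single-cell RNA was measured in 1 library and bulk RNA in 7 adult and 8 hindgut libraries. The single-cell file gives deposited UMI counts for each barcode, and the bulk table deposited by the authors holds raw counts per gene. The submitters' processing notes name Cell Ranger 3.0.2, STAR 2.5.3a and HTSeq, without their roles, and GRCm38 (mm10). Whether the deposited counts were filtered for doublets is not given in the sources used here. The tallies at the foot of the bulk table that name no gene (42.9% to 62.0% of the tallied reads) stayed out of library sizes and tests.

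The members were chosen from the readout by a rule, and the members and gene lists were chosen with earlier results of these data known. UMIs were summed over members and over other kept cells, with exact Poisson intervals and conditional binomial intervals at 95%. A gene counted as measured with at least 100 UMIs over the kept cells. The genes named were the 5 of the rule, Ascl2, Lgr5, the 30 highest and 20 lowest ratios among genes outside the rule, its filters and the mt-, Rpl and Rps genes, and up to 4 highest and lowest genes of each list; Hoxb13, Mal, Cyp2c55 and other genes named besides were chosen after their values were seen. Thinning drew 6780 UMIs from each cell. Scrublet in scanpy 1.11.5 called doublets.

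Bulk counts were tested with edgeR 4.0.16 (TMM, filterByExpr, quasi-likelihood, two-sided, Benjamini-Hochberg over all genes, threshold 0.05), in 1 fit over the adult libraries and 1 over the hindgut libraries, with group as the only term; the procedure was tested on simulated data. The labels number the replicates and call the hindgut ones biological; for the adult ones nothing says that they came from separate animals, so their p-values measure the spread between libraries, which may be technical. Alternatives were DESeq2 1.42.0, other scalings and filters, single libraries left out and the settings of the rule. Promoters came from RefSeq (GRCm38.p6). The 3 ChIP-seq samples were not analysed here. Some genes of the lists are counted but not reported by name here.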

Additional observations from a re-analysis of the deposited data

Results flagged for a closer look

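Marker RNA at the level of the members was also found in barcodes that the rule left out. Of 785 barcodes with at least 1000 UMIs but under the UMI limit, 31 held a marker share at or above that of the last member (3.95%, exact binomial interval 2.70% to 5.56%, counting error only). Their median depth was 2787 UMIs and their median mitochondrial share 31.3%. Of 1233 cells left out for their secretory share, 14 did so (1.14%, interval 0.62% to 1.90%), with a median of 33099.5 UMIs and a median secretory share of 5.004%, against 0.0215% in the members. The secretory genes took 1.65% of UMIs in free RNA and the 5 marker genes 0.0264%. The part of free RNA, of damaged cells and of doublets in these barcodes was not tested.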

How the results depend on the processing

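The count of genes at least 2-fold higher in the members ranged from 967 to 1531 over 18 of the 19 alternatives run, and that of genes at least 2-fold lower from 3384 to 5260. Centring on the median of all genes, chosen after seeing the data, gave 2565 higher and 2922 lower, and leaving ribosomal protein and mt- genes out of the totals, also chosen then, gave 967 and 5260. Membership moved more than the counts: 52 of the 100 members were shared with a mitochondrial limit of 10%, 67 with a doubled UMI floor and 90 to 100 with the other scores, floors and secretory limits. With 200 members, the log2 ratio of Pyy and the median of the enteroendocrine list were both 1.66, the reverse of the main sign; Pyy was in 1.88% of the other cells, and the cause was not tested.

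For the leading genes in bulk, Ascl2 knockout against wild type gave 5 with library size alone, 6 without a filter on low counts, 5 with DESeq2 and 0 to 5 with single libraries left out. Regenerating against wild type gave 1 with DESeq2 and 0 to 2 with libraries left out, and E16 against E11 gave 4 to 11. With the replicate block the counts were 0 for regenerating, 9 for knockout and 9 for E16; same-numbered libraries deviated with correlations of 0.129 and -0.02 for regenerating, 0.117 and 0.127 for knockout and -0.05 in the hindgut, the last equal in both pairs by construction. The labels do not tie a number to an animal or batch, and 2 pairs cannot settle whether the numbers pair the samples. The share of all genes called is given for the main fits only and was not counted for the alternatives, here and above. A change in the count of leading genes is therefore not read as particular to these genes. Depth limits genes with few UMIs in the members, such as the 20 lowest.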
